A study of Homo sapiens with 12 samples.

Results

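G2/M-high and G2/M-low cells are the cells with the most and with the least messenger RNA, among cultured A549 cells, of 10 genes that cells carry when they prepare for and pass through mitosis. A549 is a human lung adenocarcinoma cell line of epithelial origin. The cells were chosen by measured values: in each kept cell the molecules of TOP2A, MKI67, CCNB1, CDK1, UBE2C, TPX2, CENPF, PLK1, AURKA and CCNA2 were summed per 10000 molecules, and the cells of each library were ranked by this score and divided into 4 bins of nearly equal size. The top bin is called G2/M-high and the bottom bin G2/M-low. This gave 464 G2/M-high and 464 G2/M-low cells of 1871 kept cells, from 4608 wells. The study followed the epithelial-mesenchymal transition of A549 cells under TGFβ, at 4 ng/mL, by plate-based single-cell RNA sequencing with molecular barcodes (UMIs). Cells were collected before TGFβ (0 h) and 0.5 h, 12 h, 24 h, 48 h and 96 h after its addition, with 2 libraries of 384 wells per time. All groups were the same parental line with no genetic change named in the labels. The question here is what else distinguished cells high in the score from cells low in it, and whether that changed during exposure to TGFβ.

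Late in the cell cycle, transcription of a set of genes needed for mitosis is released from repression by the DREAM complex and is driven by B-MYB and FOXM1. Their products condense chromosomes, build the spindle, check its attachment to kinetochores and split the cell. TGFβ is known both as an inducer of the epithelial-mesenchymal transition and, in epithelial cells, as an inhibitor of growth that raises CDK inhibitors such as p21.

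The score separated the bins widely in every library, which follows from the choice of the cells. Its median per library was 17.4 to 34.5 UMIs per 10000 in G2/M-high cells and 0.715 to 5.10 in G2/M-low cells. The cells nearest the upper cut were close: the lowest G2/M-high cell of the 0 h replicate 1 library had 20.5 UMIs per 10000 and the next cell below it 20.3. At the lower cut of that library the highest G2/M-low cell had 4.44 and the next cell above it 4.45. Of the genes that made the score, TOP2A, which untangles replicated DNA, had 525 to 1080 CPM (UMI counts scaled to a common total per sum) in G2/M-high sums and 10.1 to 110 CPM in G2/M-low sums. MKI67, a marker of cycling cells, had 241 to 418 CPM in G2/M-high sums and 3.37 to 54.0 CPM in G2/M-low sums. CCNB1, the mitotic cyclin B1, had 142 to 446 CPM in G2/M-high and 6.12 to 74.2 CPM in G2/M-low sums, and CENPF, a kinetochore protein, 222 to 591 CPM in G2/M-high and 6.74 to 65.2 CPM in G2/M-low sums. These values describe the choice, and the 10 genes were left out of every test.

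**Figure D1:**
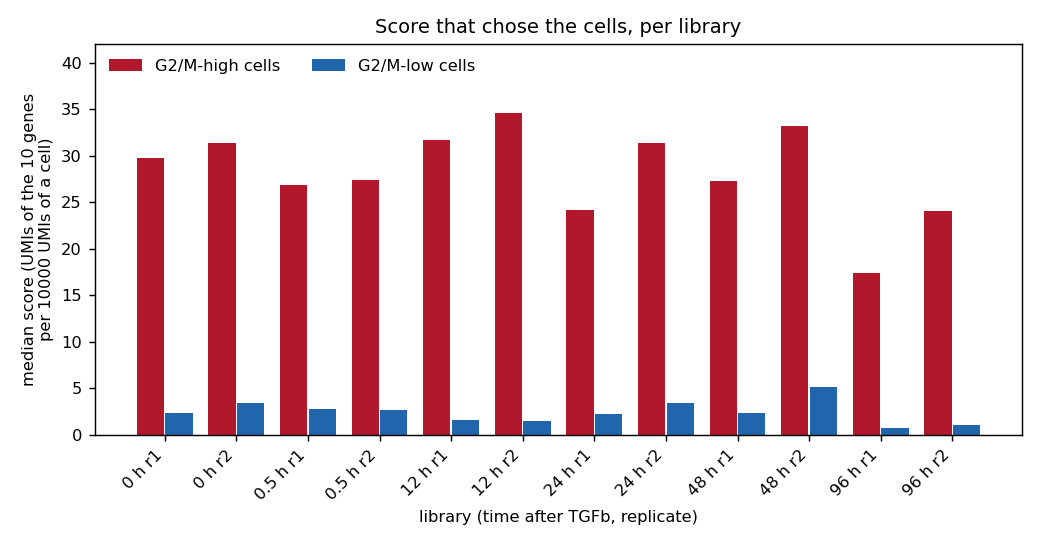
Median score (y axis, UMIs of the 10 genes per 10000 UMIs of a cell) of G2/M-high cells (red bars, left) and G2/M-low cells (blue bars, right) in each of the 12 libraries (x axis, r1 and r2 are the replicates). The lowest G2/M-high median, 17.4, belongs to the 96 h replicate 1 library, and the highest G2/M-low median, 5.10, to the 48 h replicate 2 library.

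The bins also differed in depth and in mitochondrial RNA. G2/M-high cells had a median of 16160 to 30924 UMIs per library and G2/M-low cells 12319 to 26210, and the G2/M-high median was 1.01 to 1.33 times the G2/M-low one in all 12 libraries. The share of UMIs from the mitochondrial chromosome had medians of 18.8% to 24.3% in G2/M-high and 20.5% to 26.1% in G2/M-low cells, lower in G2/M-high cells of all 12 libraries. The score is divided by all UMIs of a cell, mitochondrial ones included. Depth and mitochondrial share therefore enter the choice of the cells. With each cell thinned to 10000 UMIs, 2949 to 3153 genes were detected per G2/M-high cell and 2838 to 2981 per G2/M-low cell (medians per library). The levels below are CPM, while G2/M-high cells had 1.01 to 1.33 times the median UMIs of G2/M-low cells. A gene lower in CPM by no more than that factor may therefore be as abundant per cell. The part of depth in the results was tested only by thinning.

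Several features of the libraries bear on all results. Each of these bins held 13 to 54 cells per library, fewest at 96 h (13 and 16), and the summed protein-coding counts ran from 296584 to 1146725 UMIs. All 6 libraries of one replicate number used the same 384 well barcodes, and the other 6 shared none with them, so replicate number and barcode set cannot be told apart. Among libraries of one barcode set, 10.4% to 37.9% of the barcodes of kept wells were shared in pairs. The labels do not say that the replicates were separate cultures. The p-values measure how the high minus low difference within a library varied between these libraries, a spread that may be technical. In tests of change with time it is the spread between the 2 libraries of a time. The epithelial cells matched their label: 5 of 5 A549 markers (KRT8, KRT18, EPCAM, AKR1B10, AKR1C1) had counts, summing to 1640 to 11000 CPM in G2/M-high and 1810 to 12100 CPM in G2/M-low sums. EPCAM did not pass the filter on low counts. Endothelial markers summed to at most 1.82 CPM in G2/M-high and 3.06 CPM in G2/M-low sums with CDH5, VWF and KDR at 0, immune markers to at most 9.12 CPM in G2/M-high and 16.4 CPM in G2/M-low sums with PTPRC, CD3E and LYZ at 0. Fibroblast markers summed to at most 12.3 CPM in G2/M-high and 16.9 CPM in G2/M-low sums, with some counts for each marker.

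Across the 12 libraries, 2192 of 6850 protein-coding genes differed between G2/M-high and G2/M-low cells (32.0%), by edgeR's quasi-likelihood test on the 24 paired sums at a Benjamini-Hochberg adjusted p of 0.05. Of these, 924 were higher in G2/M-high cells (13.5% of genes tested) and 1268 were lower (18.5%). The sides were unequal in size: 152 of the genes that rose had a log2 difference over 1, against 18 of the genes that fell with a difference under -1. The median log2 difference was 0.46 among genes that rose, -0.36 among genes that fell and -0.04 over all genes tested. Against a 1.5-fold difference 177 genes passed, 161 of them higher and 16 lower, and with each cell thinned to 10000 UMIs 1044 of 4591 genes passed.

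The genes with the highest differences build and regulate the mitotic spindle. None of them was in the score, but the score was itself made of mitotic genes, so this ranking is not independent of the choice of the cells. CDCA8, the borealin subunit of the chromosomal passenger complex, had 40.7 CPM at the lowest, 83.4 at the median and 99.5 at the highest of the G2/M-high sums, against 2.59, 4.44 and 8.81 CPM in G2/M-low sums. Its log2 difference was 3.89 ± 0.16 (SE, n = 12 libraries, edgeR adjusted p = 9.6e-28), and it was higher in G2/M-high cells of 12 of 12 libraries. NEK2, a centrosomal kinase that separates the spindle poles, had 26.1, 91.6 and 117 CPM in G2/M-high sums, against 3.27, 6.89 and 10.6 CPM in G2/M-low sums (log2 difference 3.72 ± 0.14). The lowest G2/M-high values of NEK2, 26.1 and 31.6 CPM, were those of the 96 h libraries. HMMR, which binds spindle microtubules, had 98.7, 115 and 169 CPM in G2/M-high sums and 0, 8.02 and 25.8 CPM in G2/M-low sums. In all 12 genes named by size of the difference, the lowest G2/M-high sum lay above the highest G2/M-low sum. They were picked for large differences with the same sign in at least 11 libraries, so this separation follows in part from the choice. Such separation was not counted over all genes. Of the 924 genes that rose, 341 had the same sign in all 12 libraries.

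CENPE, a kinesin that carries chromosomes to the spindle equator, had 40.7, 92.7 and 123 CPM in G2/M-high sums, against 0, 6.44 and 15.7 CPM in G2/M-low sums (log2 difference 3.67 ± 0.15). CDC20, the activator of the anaphase-promoting complex that the spindle checkpoint holds back, had 37.8, 123 and 151 CPM in G2/M-high sums, against 0, 9.31 and 18.1 CPM in G2/M-low sums (log2 difference 3.44 ± 0.13). The others of the 12 were GTSE1, a microtubule-binding protein of G2 and S phase, the kinesins KIF2C, KIF20A and KIF14, the NDC80 complex subunits NDC80 and NUF2, and CDCA3, which promotes degradation of the mitotic inhibitor WEE1. Their log2 differences were 3.30 (KIF14) to 3.72 (GTSE1), with edgeR adjusted p-values of 2.1e-10 (KIF14) or lower. KIF20A, KIF2C, HMMR and CDCA3, and of the genes named below by the rule RACGAP1, RAD21, RRM1, H4C3, ITGB4, TGM2, SLC16A4, SYT1, SNORC, CDK2, CCN2, CALD1, MT-ND6, HSP90B1, CHAF1A and DCBLD2, have a gene on the opposite strand within 1000 bases of their 3′ end in GENCODE 44. Reads of such pairs cannot be told apart unless counting used strand.

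**Figure D2:**
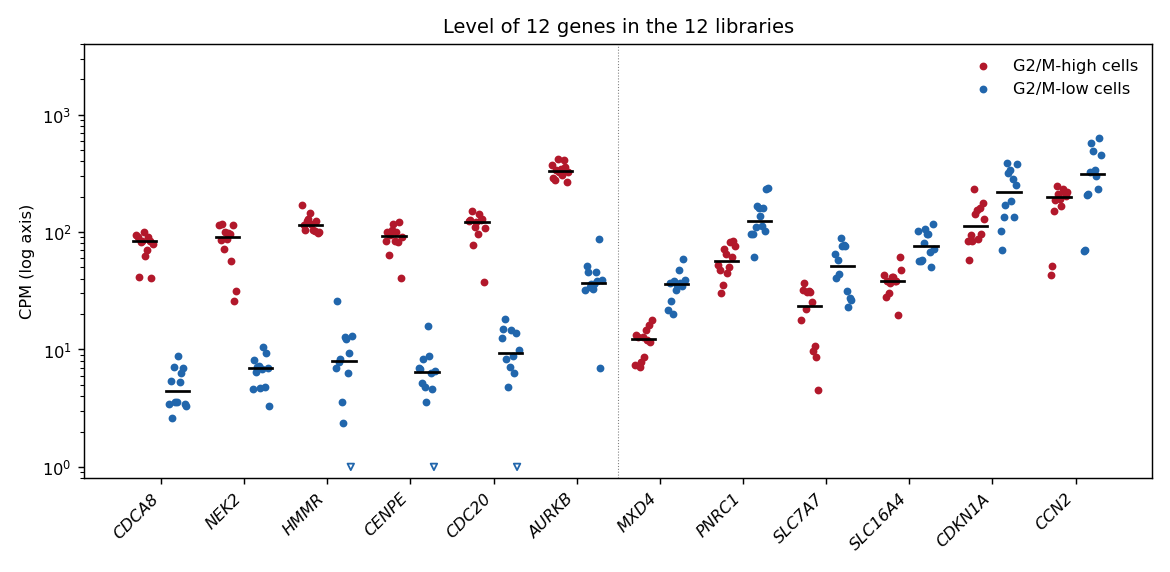
Level (y axis, CPM on a log axis) of 12 genes in G2/M-high sums (red points, left of each pair) and G2/M-low sums (blue points, right), 1 point per library, with the median of the 12 libraries as a black line. Triangles on the lower edge mark a library at 0 CPM. The 6 genes left of the dotted line do not overlap between groups, and the genes on the right, except MXD4, do.

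Promoters of these genes were read because mitotic genes are known to carry a cell cycle homology region (CHR), the site that the DREAM complex and B-MYB use, often beside CCAAT boxes bound by NF-Y. Searched on both strands, a CHR was taken as TTTGAA or TTCGAA and a CCAAT box as CCAAT, in the 300 bases from 250 before to 50 after the RefSeq start on GRCh38.p14. Of the 12 genes with the highest difference, 12 had a promoter entry, 8 held a CHR and 6 held both motifs. The sequences below run from 100 bases before to 50 bases after the start, 5′ to 3′ in the direction of the gene, with CHR and CCAAT matches in capitals. ATTGG is a CCAAT box on the other strand. In CDCA8 a CHR overlaps a CCAAT match (TTTGAATTGG). In HMMR the CHR matches adjoin each other and CCAAT matches overlap each other, but the CHR matches lie apart from the CCAAT matches.
CDCA8, chr1:37692416-37692565, plus strand: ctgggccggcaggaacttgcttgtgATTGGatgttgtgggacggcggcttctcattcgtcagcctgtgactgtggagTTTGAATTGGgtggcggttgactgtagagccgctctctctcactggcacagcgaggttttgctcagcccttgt
HMMR, chr5:163460532-163460681, plus strand: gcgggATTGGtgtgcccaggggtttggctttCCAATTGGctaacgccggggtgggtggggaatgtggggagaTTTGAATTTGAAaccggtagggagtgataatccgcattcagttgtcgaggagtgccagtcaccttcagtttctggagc
CDCA3, chr12:6851237-6851386, minus strand: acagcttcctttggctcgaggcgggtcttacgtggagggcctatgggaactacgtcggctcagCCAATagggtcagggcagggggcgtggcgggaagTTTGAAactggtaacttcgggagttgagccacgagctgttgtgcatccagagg
CDC20, chr1:43358881-43359030, plus strand: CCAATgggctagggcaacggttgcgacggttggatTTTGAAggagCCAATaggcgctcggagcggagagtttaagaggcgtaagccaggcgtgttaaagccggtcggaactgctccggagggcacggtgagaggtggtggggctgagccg
NUF2, chr1:163321854-163322003, plus strand: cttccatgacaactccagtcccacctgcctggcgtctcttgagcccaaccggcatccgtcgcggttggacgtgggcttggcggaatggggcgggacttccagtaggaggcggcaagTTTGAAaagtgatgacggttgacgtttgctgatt
NEK2, chr1:211675572-211675721, minus strand: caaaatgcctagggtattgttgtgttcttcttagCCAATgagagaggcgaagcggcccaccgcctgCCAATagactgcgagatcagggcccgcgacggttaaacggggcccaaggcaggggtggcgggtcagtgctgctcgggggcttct
NUF2 is shown for a CHR with no CCAAT box in this stretch, and NEK2 for CCAAT boxes with no CHR in its 300 bases.

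The same letters were counted over larger groups of genes. A CHR was in 181 of 768 promoters of genes that rose (23.6%) and in 73 of 127 of those with a log2 difference over 1 (57.5%). It was in 104 of 1026 promoters of genes that fell (10.1%), in 628 of 5666 of all genes tested (11.1%) and in 16.6% of all 27305 promoters of this length. Both motifs together were in 40.2% of promoters of genes with a log2 difference over 1, 4.00% of genes that fell and 4.91% of genes tested. A match describes the letters and does not show binding.

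In each of 6 lists of genes for cell division most tested members were higher in G2/M-high cells. Like the score, these lists hold mitotic genes, so their direction is not independent of the choice of the cells. Of the regulators of mitotic entry, 17 of 18 tested were higher and 1 lower in G2/M-high cells, with a median log2 difference of 1.72 against -0.04 over all genes tested. AURKB, the kinase of the chromosomal passenger complex, had 267, 333 and 416 CPM (lowest, median, highest) in G2/M-high sums, against 6.93, 37.1 and 87.9 CPM in G2/M-low sums (log2 difference 3.07 ± 0.12). CCNB2, cyclin B2, had 90.0, 319 and 453 CPM in G2/M-high sums, against 20.8, 58.9 and 86.3 CPM in G2/M-low sums. CKS2, a small protein bound to CDK1, was higher in G2/M-high cells by 2.19 ± 0.08. The smallest rises in this list were those of ARPP19, an inhibitor of PP2A (log2 difference 0.20 ± 0.06), and WEE1, the kinase that inhibits CDK1 (log2 difference 0.49 ± 0.14, edgeR adjusted p = 0.0065). WEE1 had 18.5, 37.7 and 53.3 CPM in G2/M-high sums and 3.46, 26.2 and 41.6 CPM in G2/M-low sums. It averaged 24.8 CPM in G2/M-high and 25.9 CPM in G2/M-low cells at 0 h, and 27.3 against 29 CPM at 0.5 h. At 12 h these means were 40.1 CPM in G2/M-high and 23.2 CPM in G2/M-low cells. The WEE1 call was lost with the top against the bottom of 3 bins, in replicate 1 alone and against a 1.5-fold difference. The gene that fell was ENSA, an inhibitor of the phosphatase PP2A in mitosis, at -0.26 ± 0.07, a call that was lost with cells thinned to 10000 UMIs.

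All 25 tested kinesin and spindle genes and all 12 cytokinesis genes were higher in G2/M-high cells, with median log2 differences of 2.67 and 2.54. Of kinetochore and centromere genes, 26 of 29 were higher and none lower (median 1.63). CENPA, the histone H3 variant that marks centromeres, was higher by 3.04 ± 0.12 and RACGAP1, part of the centralspindlin complex of the midbody, by 2.96 ± 0.12. Spindle checkpoint and anaphase-promoting complex genes were higher in 13 of 18 cases (median 0.82): BUB1, a checkpoint kinase, by 3.16 ± 0.15 and BUB3, its partner, by 0.89 ± 0.06. In the list of condensin, cohesin and mitotic chromatin 20 of 22 were higher (median 1.08), among them the condensin subunit NCAPD2 by 2.09 ± 0.10 and the cohesin subunit RAD21 by 1.06 ± 0.07. The sums of these 6 lists were highest in the top bin and lowest in the bottom bin of the score in 12 of 12 libraries.

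**Figure D3:**
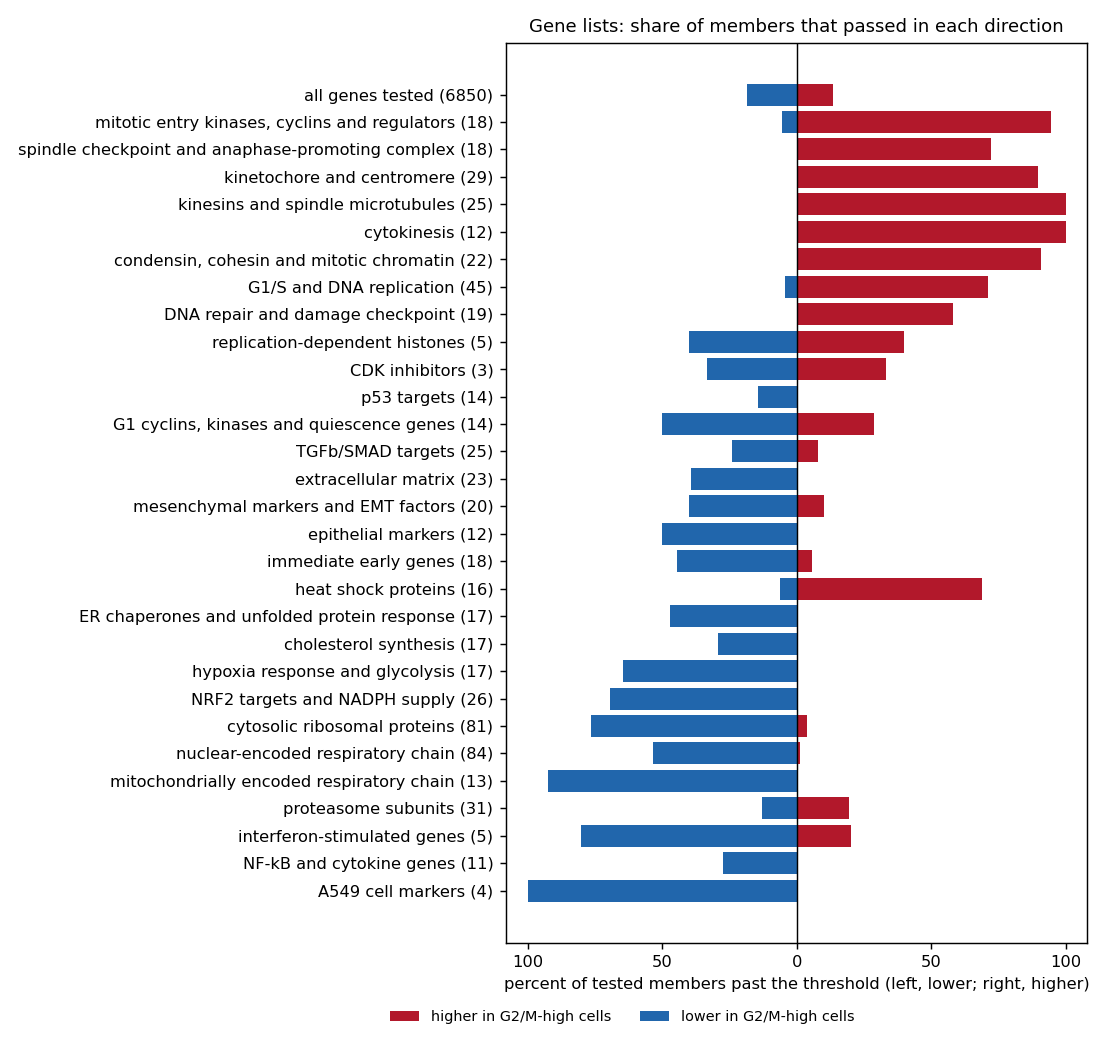
Percent of the tested members of each gene list (number tested in parentheses) that passed the threshold as higher in G2/M-high cells (red, to the right) or lower (blue, to the left). The top line gives all 6850 genes tested, of which 13.5% were higher and 18.5% lower.

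Genes of DNA replication were also higher in G2/M-high cells, but their peak lay elsewhere on the score. Of 45 tested genes of the G1/S transition and DNA replication, 32 were higher and 2, DTL and UNG, were lower (median log2 difference 0.68). RRM1, the large subunit of ribonucleotide reductase, averaged 163 ± 24.2 CPM in G2/M-high and 69.5 ± 13.9 CPM in G2/M-low sums (SD, n = 12 each), a log2 difference of 1.17 ± 0.08. DTL, which targets replication factors for degradation, differed by -0.41 ± 0.15 (edgeR adjusted p = 0.035), and UNG, a uracil glycosylase, by -0.44 ± 0.12 (edgeR adjusted p = 0.0041). Over the 4 bins of the score, the summed list was lowest in the bottom bin in 12 libraries and highest in the next to top bin in 10 of them. At 0 h the means of the 2 libraries were 2790, 4480, 5020 and 3980 CPM from the lowest to the highest bin. Of DNA repair and damage checkpoint genes, 11 of 19 were higher and none lower (median 0.70), with the highest sum again in the next to top bin in 8 of 12 libraries. The replication-dependent histone H4C3 had 288, 652 and 1090 CPM in G2/M-high sums, against 46.3, 114 and 182 CPM in G2/M-low sums, but 5 of 53 histone genes passed the filter on low counts and they moved in both directions.

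**Figure D4:**
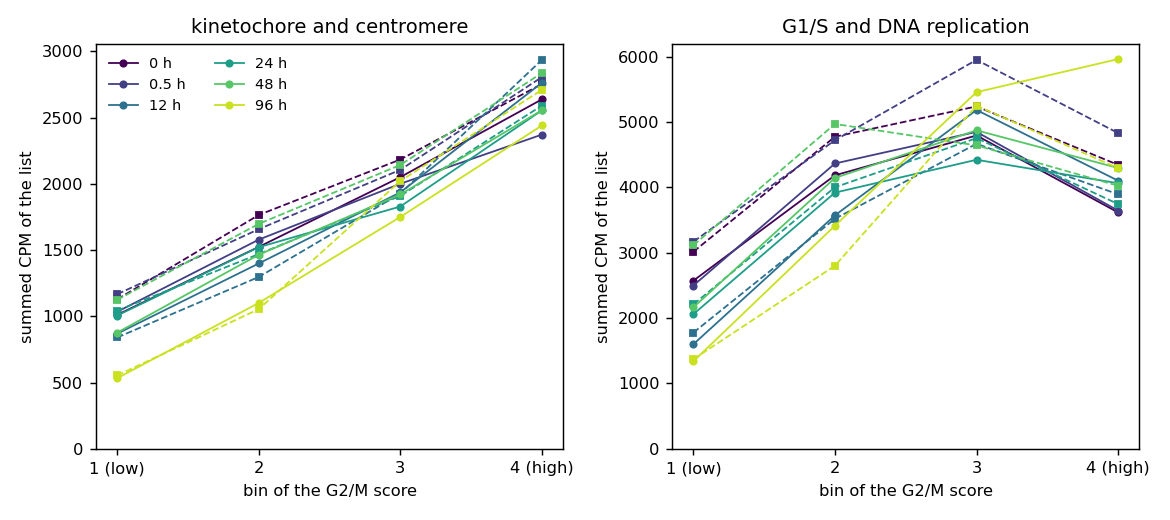
Summed CPM (y axes, from 0) of the kinetochore and centromere list (left) and the G1/S and DNA replication list (right) in the 4 bins of the G2/M score (x axes, low to high), 1 line per library coloured by time. Solid lines are replicate 1 and dashed lines replicate 2. The kinetochore sums are highest in the top bin of all 12 libraries and the replication sums in the next to top bin of 10.

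The genes with the lowest differences included a MYC antagonist and several solute carriers. MXD4, a repressor that competes with MYC for its partner MAX, had 7.05, 12.4 and 18.0 CPM in G2/M-high sums, against 20.1, 35.9 and 58.9 CPM in G2/M-low sums. Its log2 difference was -1.58 ± 0.16 (edgeR adjusted p = 3.9e-12), lower in 12 of 12 libraries with no overlap between the groups. PNRC1, a nuclear receptor coregulator, had 30.1, 57.0 and 84.2 CPM in G2/M-high sums, against 60.8, 125 and 239 CPM in G2/M-low sums, and was lower within each of the 12 libraries (log2 difference -1.23 ± 0.09). SLC16A4, a monocarboxylate transporter, had 19.8, 38.5 and 61.0 CPM in G2/M-high sums and 50.9, 76.7 and 118 CPM in G2/M-low sums. SLC7A7, an amino acid transporter, had 4.51, 23.6 and 37.0 CPM in G2/M-high sums and 23.1, 51.0 and 89.8 CPM in G2/M-low sums. These groups overlapped across libraries, and the sign was the same in 12 of 12 for both.

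The remaining genes of the 12 with the lowest differences were ITGB4, the integrin of hemidesmosomes, SYT1, a vesicle calcium sensor, SLC2A3, a glucose transporter, ST3GAL1, a sialyltransferase, SLC17A5, a lysosomal sialic acid exporter, SNORC, a proteoglycan, the chemokine CXCL8 and TGM2, a protein cross-linking enzyme. Their log2 differences were led by ITGB4 at -1.30, and SNORC had the smallest of the 12, with an SE of 0.16. TGM2 had 33.6, 309 and 645 CPM in G2/M-high sums, against 82.6, 609 and 1770 CPM in G2/M-low sums, and was lower in 12 of 12 libraries, but it did not pass against a 1.5-fold difference. CXCL8 was lower by 1.18 on the log2 scale with an SE of 0.27, and its call was lost in the 6 libraries of replicate 1 taken alone.

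Of 7 CDK inhibitors, 3 could be tested, of which 1 was lower, 1 higher and 1 did not pass. CDKN1A, which encodes p21, had 58.0, 112 and 234 CPM in G2/M-high sums, against 70.6, 219 and 391 CPM in G2/M-low sums, and the ranges overlapped. Within libraries it was lower in G2/M-high cells in 12 of 12 (log2 difference -0.84 ± 0.08, edgeR adjusted p = 2.8e-10). By time, CDKN1A averaged 71.2 CPM in G2/M-high and 86.4 CPM in G2/M-low cells at 0 h, 189 CPM in G2/M-high and 354 CPM in G2/M-low cells at 12 h, and 153 CPM in G2/M-high and 316 CPM in G2/M-low cells at 96 h. Its mean level was above that of 0 h in both bins at each later time. CDKN2C, which encodes p18 and binds CDK4 and CDK6, was higher in G2/M-high cells, with 30.6, 53.8 and 69.9 CPM in these sums against 20.3, 28.9 and 48.6 CPM in G2/M-low sums (log2 difference 0.85 ± 0.13). CDKN1B, which encodes p27, did not pass (0.29 ± 0.13, edgeR adjusted p = 0.072). Of 14 tested p53 targets none was higher and 2 were lower, ZMAT3 and GADD45A, beside 18.5% of all genes tested that were lower. This list left out CDKN1A, which was counted with the CDK inhibitors, so its share of lower genes depends on that choice. The GADD45A call was lost under 18 of 28 other settings. Of 14 tested G1 cyclins, kinases and quiescence genes, 4 were higher, including CDK2 by 0.84 ± 0.14, and 7 lower, including BTG1, an antiproliferative factor, by 0.36 on the log2 scale.

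Targets of TGFβ and SMAD signalling were measured in every bin of the score. The summed list averaged 2240 CPM in the top and 2010 CPM in the bottom bin at 0 h, 11800 CPM in the top and 12900 CPM in the bottom bin at 12 h, and 16700 CPM in the top and 16000 CPM in the bottom bin at 96 h. Of 25 members tested, 2 were higher, 6 lower and 17 did not pass, with a median log2 difference of -0.05, close to that of all genes. The share of members called was also that of all genes tested, of which 32.0% passed (13.5% higher and 18.5% lower). IL11, a cytokine, was higher in G2/M-high cells by 0.84 ± 0.13 (edgeR adjusted p = 0.00013): at 12 h it had 295 and 305 CPM in G2/M-high, against 79.0 and 137 CPM in G2/M-low sums, and at 0 h it had at most 8.93 CPM in either. ID2, an inhibitor of differentiation factors, was higher by 0.64 ± 0.10, in 11 of 12 libraries. CCN2, the matricellular connective tissue growth factor, was lower in 12 of 12 libraries (-0.79 ± 0.15, edgeR adjusted p = 0.0017), with 245 and 212 CPM in G2/M-high against 323 and 575 CPM in G2/M-low sums at 12 h. SMAD7, ID1 and ID3 did not pass, with log2 differences of 0.04 ± 0.14, -0.04 ± 0.07 and 0.02 ± 0.15.

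Genes of cell identity and matrix that passed the threshold were mostly lower in G2/M-high cells, as were 1268 of the 2192 genes called over all genes (18.5% of genes tested). Of 12 tested epithelial markers none was higher and 6 were lower (median -0.41), and KRT8 averaged 839 ± 296 CPM in G2/M-high and 1266 ± 387 CPM in G2/M-low sums (SD, n = 12 each). Of 20 mesenchymal markers and transition factors, 2 were higher and 8 lower (median -0.13). CALD1, an actin-binding protein, was lower by 0.48 on the log2 scale in 12 of 12 libraries, and VIM, vimentin, did not pass over the 12 libraries (-0.05 ± 0.07) but passed the contrast with exposure described below (-0.36, edgeR adjusted p = 0.00075). All 4 tested A549 markers were lower, but the call of AKR1B10, an aldo-keto reductase, was kept in only 9 of 29 other settings. At 96 h AKR1B10 had 491 and 719 CPM in G2/M-high against 360 and 559 CPM in G2/M-low sums, the opposite direction. Of 23 extracellular matrix genes none was higher and 9 were lower, among them FN1, fibronectin, at -0.57 ± 0.11.

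Many genes of energy supply, redox defence and translation were lower by small amounts, beside 18.5% of all genes tested that were lower and 13.5% that were higher. Of 26 NRF2 targets and NADPH genes 18 were lower (median -0.27), and of 17 hypoxia and glycolysis genes 11 were lower (median -0.23). PGK1, a glycolytic kinase, averaged 765 ± 116 CPM in G2/M-high and 996 ± 287 CPM in G2/M-low sums, lower in 12 of 12 libraries. Of 81 ribosomal protein genes 62 were lower and 3 higher, but the median was only -0.15. Nuclear-encoded respiratory chain genes were lower in 45 of 84 cases (median -0.18) and mitochondrially encoded ones in 12 of 13 (median -0.17), beside the lower mitochondrial share given above. The log2 differences of MT-CO1 and MT-ND6 turned to 0.05 and 0.01 when wells had to hold 3000 genes or more and no more than 20% mitochondrial UMIs, which left 48 cells in each group.

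The lists of chaperones differed in direction. Of 16 heat shock genes of the cytosol and mitochondria 11 were higher in G2/M-high cells and 1 was lower (median 0.23). HSP90AA1, the inducible cytosolic HSP90, averaged 2248 ± 388 CPM in G2/M-high and 1501 ± 327 CPM in G2/M-low sums, higher in 12 of 12 libraries (log2 difference 0.59 ± 0.04). The gene that fell was HSPB1, a small heat shock protein that binds actin filaments (-0.51 ± 0.08). Of 17 endoplasmic reticulum chaperones and unfolded protein response genes none was higher and 8 were lower (median -0.23), among them HSP90B1 in 12 of 12 libraries. Of 18 immediate early genes 1 was higher and 8 lower, with FOS and EGR1 lower in 12 of 12. Other lists had shares of calls near the 32.0% of all genes tested (13.5% higher and 18.5% lower). They included cholesterol synthesis (0 higher and 5 lower of 17) and proteasome subunits (6 higher and 4 lower of 31). NF-κB and cytokine genes (0 higher and 3 lower of 11) were also near that share. Of interferon-stimulated genes only 5 were tested, of which 1 was higher and 4 lower.

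Whether the differences changed with time was tested in a model with a separate high minus low difference at each of the 6 times. No untreated library was collected at 12 to 96 h, so exposure to TGFβ cannot be told apart from time in culture. The difference varied over the 6 times for 120 genes (1.75% of 6850 tested, edgeR, with 675 at an unadjusted p under 0.05), and 30 genes passed with DESeq2. One contrast set the mean difference at 12, 24, 48 and 96 h (8 libraries) minus that at 0 and 0.5 h (4 libraries): 82 genes passed (1.20%), 38 with a more positive difference at 12 to 96 h and 44 with a more negative one, and 7 passed with DESeq2. None of the 12 genes with the highest differences passed either test. These counts were smaller without the 96 h libraries, at 57 and 33 genes, and under a single cut of the score for all libraries, which left 11 of them, at 51 and 25.

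Replication genes were the list with most members in this contrast. Of 45 G1/S and DNA replication genes 13 passed the contrast, all with a larger difference at 12 to 96 h, beside 1.20% of all genes. Of 25 kinesin and spindle genes 0 passed. The list's median log2 difference stood at 0.34 before exposure and 0.45 after 0.5 h. It was 0.96 after 12 h, 0.61 after 24 h, 0.56 after 48 h and 1.65 after 96 h. In summed levels the top bin averaged 3980 CPM before TGFβ, 4240 CPM after 0.5 h, 4000 CPM after 12 h, 3910 CPM after 24 h, 4160 CPM after 48 h, and finally 5130 CPM after 96 h. The bottom bin averaged 2790 CPM before TGFβ, 2830 CPM after 0.5 h, 1690 CPM after 12 h, 2130 CPM after 24 h, 2640 CPM after 48 h, and finally 1360 CPM after 96 h, so that its level at 48 h was close to that of 0 h. Since bins were cut within each library, the bottom bin was not equally low in score at each time. In replicates 1 and 2 its median score was 2.33 and 3.44 at 0 h, and 2.77 and 2.70 at 0.5 h. It was 1.59 and 1.46 at 12 h, and 2.21 and 3.355 at 24 h. At 48 h it was 2.32 and 5.10, and at 96 h 0.715 and 1.05. The part of these scores in the change was tested only by the single cut. Over all genes the contrast had 25 calls under the single cut and 5 with cells thinned to 10000 UMIs, against 82.

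PCNA, the sliding clamp of DNA polymerase, had 382 and 553 CPM in G2/M-high against 406 and 425 CPM in G2/M-low sums at 0 h, 328 and 330 CPM in G2/M-high against 147 and 202 CPM in G2/M-low sums at 12 h, and 842 and 534 CPM in G2/M-high against 208 and 222 CPM in G2/M-low sums at 96 h. At 48 h it had 448 and 580 CPM in G2/M-high against 281 and 481 CPM in G2/M-low sums. The groups overlapped at 0 and 48 h and were apart at 12 and 96 h. The contrast was 0.73 (edgeR adjusted p = 8.4e-05), but 0.33 (adjusted p = 0.28) under a single cut for all libraries and 0.53 (adjusted p = 0.097) with thinned cells, and it did not pass under the stricter limits on cells either. CHAF1A, a subunit of chromatin assembly factor 1, had 31.5 and 45.1 CPM in G2/M-high against 5.98 and 7.08 CPM in G2/M-low sums at 12 h, but 24.3 and 27.9 CPM in G2/M-high against 28.7 and 25.8 CPM in G2/M-low sums at 0 h (contrast 1.90, edgeR adjusted p = 0.00014). At 24 and 48 h the CHAF1A log2 differences were 0.30 ± 0.35 and 0.82 ± 0.45, within about 2 SE of 0. MCM10, a replication initiation factor, was lower in G2/M-high cells at 0 h (log2 difference -0.99 ± 0.34) and higher at 12 h (1.63 ± 0.40), but 0.01 ± 0.35 at 48 h, a contrast of 1.85 (edgeR adjusted p = 8.4e-05). Under a single cut neither CHAF1A (adjusted p = 0.19) nor MCM10 (adjusted p = 0.64) passed.

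PTTG1, securin, the inhibitor of the protease that opens cohesin, had the lowest adjusted p of the contrast (1.11, edgeR adjusted p = 2.2e-07). Before exposure its log2 difference was 1.02 ± 0.12, and after 12 h it was 2.05 ± 0.14. After 48 h it was 1.04 ± 0.15, and after 96 h 3.63 ± 0.33. At 96 h it had 128 and 329 CPM in G2/M-high, against 13.9 and 22.9 CPM in G2/M-low sums, and at 0 h 563 and 403 CPM in G2/M-high against 290 and 189 CPM in G2/M-low sums. The change did not pass with the top against the bottom of 3 bins (adjusted p = 0.20), under a single cut (adjusted p = 0.58) or with cells thinned to 10000 UMIs (adjusted p = 0.16). TK1, thymidine kinase, and PCLAF, a PCNA-binding factor, passed the test of the 6 times through 96 h: TK1 had a log2 difference of 2.94 ± 0.23 at 96 h and 0.87 ± 0.13 to 1.38 ± 0.14 at the other times, and PCLAF 2.24 ± 0.17 at 96 h and 0.59 ± 0.11 to 0.92 ± 0.11 before. Without the 96 h libraries neither passed (adjusted p = 0.56 for TK1 and 0.79 for PCLAF).

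Promoters of genes whose difference became more positive were searched for the E2F site, the element of G1/S genes, as TTTCCCGC, TTTCGCGC, TTTGCCGC or TTTGGCGC on either strand. It was in 10 of 35 of these promoters (28.6%), in 5.91% of promoters of genes tested and in 3.33% of all promoters of this length. No E2F word contains a CHR or a CCAAT box, and each motif was searched on its own. PCNA is shown because its level is described above, with the E2F match (TTTCCCGC on the other strand) in capitals and other motifs unmarked.
PCNA, chr20:5126573-5126722, minus strand: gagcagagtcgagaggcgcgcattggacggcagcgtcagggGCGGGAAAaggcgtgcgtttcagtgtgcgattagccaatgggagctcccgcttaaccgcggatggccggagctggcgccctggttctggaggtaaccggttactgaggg
MCM10, CHAF1A and PTTG1 had no match to these letters in their 300 bases. MCM10 holds TTTGGCGG, and CHAF1A holds it on the other strand. This word differs from the searched TTTGGCGC in its last base and was not counted, so other forms of the site may have been missed.

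Other genes changed in the opposite direction. CD24, a surface glycoprotein of epithelial cells, had 353 and 316 CPM in G2/M-high against 442 and 360 CPM in G2/M-low sums at 0 h, and 273 and 180 CPM in G2/M-high against 735 and 491 CPM in G2/M-low sums at 96 h. Its log2 difference was -0.26 ± 0.11 at 0 h, -0.96 ± 0.12 at 12 h and -1.43 ± 0.14 at 96 h (contrast -0.62, edgeR adjusted p = 7.0e-05). HSPB1 had 1420 and 1130 CPM in G2/M-high against 1650 and 1220 CPM in G2/M-low sums at 0 h, and 4030 and 3550 CPM in G2/M-high against 7340 and 4850 CPM in G2/M-low sums at 48 h, a contrast of -0.46 (edgeR adjusted p = 0.00022). RSPO3, an activator of Wnt signalling, was near 0 before exposure (0.02 ± 0.16 at 0 h) and lower in G2/M-high cells at 96 h (-1.39 ± 0.20), with a contrast of -0.81 that was lost with cells thinned to 10000 UMIs (adjusted p = 0.44). CXCL5, a neutrophil chemokine, lost its contrast without 96 h replicate 2 (-0.62, adjusted p = 0.26), where 1 cell held 70.4% of the G2/M-low UMIs of the gene. DCBLD2, a membrane receptor, lost its contrast without 0 h replicate 1 (-0.31, adjusted p = 0.14).

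CYB5B, a cytochrome b5 of the outer mitochondrial membrane, differed at 0 and 0.5 h but not beyond its error from 12 h on. At 0 and 0.5 h it had 475 to 573 CPM in G2/M-high and 652 to 788 CPM in G2/M-low sums, which did not overlap, and from 12 h on 227 to 282 CPM in G2/M-high and 210 to 268 CPM in G2/M-low sums. The contrast was 0.56 (edgeR adjusted p = 8.5e-05), but 0.51 (adjusted p = 0.10) with cells thinned to 10000 UMIs and -0.17 (adjusted p = 0.997) in the 48 cells per group under the stricter limits.

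At 96 h several of the genes that varied over the 6 times were higher in G2/M-high cells. IGFBP3, an insulin-like growth factor carrier, had 555 and 638 CPM in G2/M-high against 187 and 157 CPM in G2/M-low sums at 96 h, but 54.2 and 73.2 CPM in G2/M-high against 89.8 and 149 CPM in G2/M-low sums at 12 h. Its log2 difference was -0.90 ± 0.18 at 12 h and 1.80 ± 0.17 at 96 h (edgeR adjusted p over the 6 times = 9.3e-16). COL5A2, a fibrillar collagen chain, had 616 and 489 CPM in G2/M-high against 204 and 324 CPM in G2/M-low sums at 96 h, and 121 and 105 CPM in G2/M-high against 157 and 178 CPM in G2/M-low sums at 12 h. EPAS1, the hypoxia factor HIF-2α, differed by -0.63 ± 0.10 at 12 h and 0.62 ± 0.12 at 96 h. CCDC80, a secreted matrix protein, differed by 0.92 ± 0.14 at 96 h and by -0.60 ± 0.13 to -0.23 ± 0.14 before.

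The 96 h groups held 13 and 16 cells, the fewest of all times. The cell with most IGFBP3 held 17.8% and 30.4% of its G2/M-high UMIs in the 96 h libraries, and 13 of 13 and 15 of 16 cells had at least 1 UMI. The median per cell was 3.22 and 1.81 UMIs of IGFBP3 per 10000 in G2/M-high cells against 1.21 and 0.458 in G2/M-low cells, the same direction as the sums. Without the 96 h libraries CCDC80 (adjusted p = 0.86), COL5A2 (adjusted p = 0.21) and EPAS1 (adjusted p = 0.26) did not pass over the remaining times. NPTX1, a secreted pentraxin, was at most 7.81 CPM in G2/M-high and 3.55 CPM in G2/M-low sums at 0 and 0.5 h. It was lower in G2/M-high cells at 48 h, with 188 and 204 CPM against 262 and 268 CPM in G2/M-low sums, and higher at 96 h, with 453 and 473 CPM in G2/M-high against 142 and 134 CPM in G2/M-low sums. MT2A, a metallothionein, had 461 and 327 CPM in G2/M-high against 244 and 185 CPM in G2/M-low sums at 0 h, 2150 and 2330 CPM in G2/M-high against 1430 and 2000 CPM in G2/M-low sums at 48 h, and 1770 and 2570 CPM in G2/M-high against 2840 and 3510 CPM in G2/M-low sums at 96 h (edgeR adjusted p over the 6 times = 6.8e-13).

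**Figure D5:**
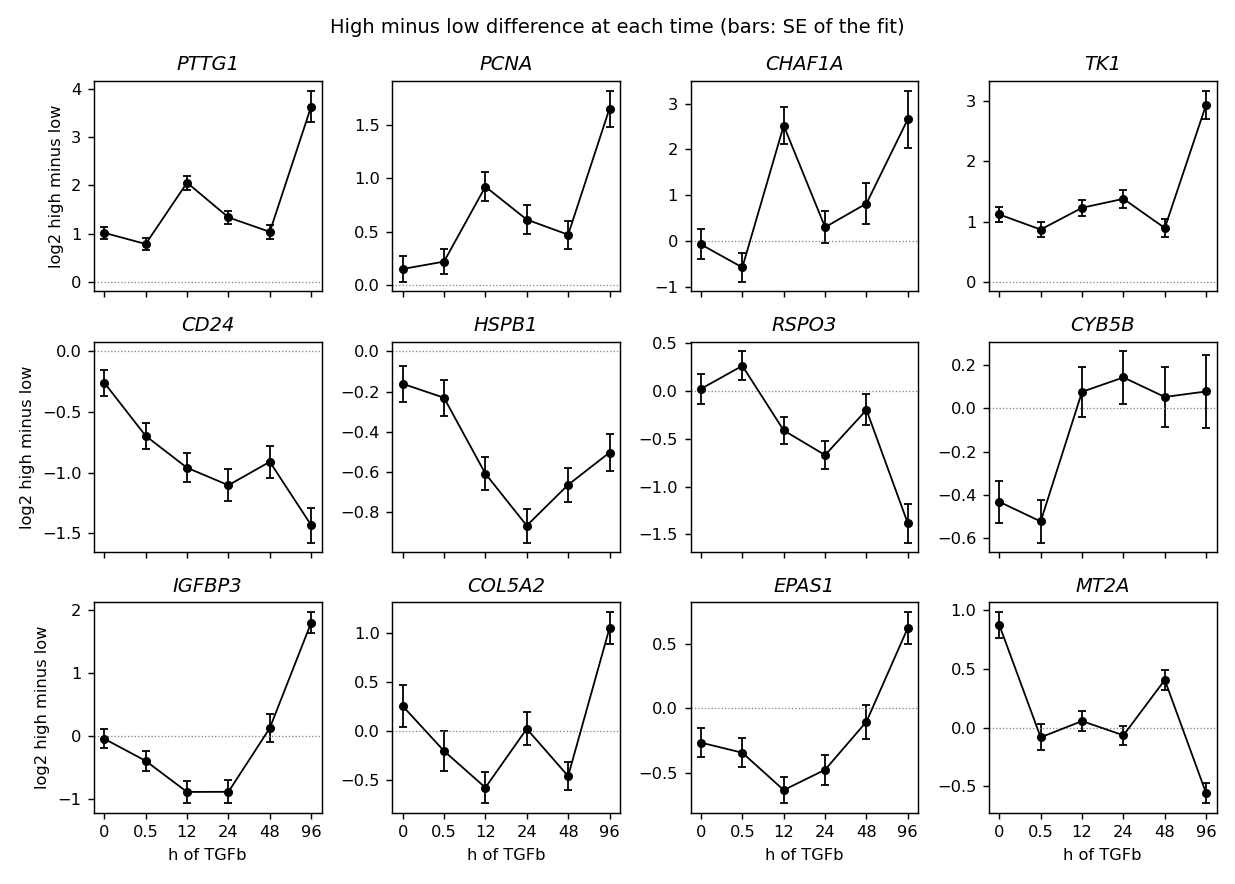
High minus low difference (y axes, log2) of 12 genes at each time of TGFβ exposure (x axes, hours, equally spaced), from the model with a difference per time and 2 libraries each. Bars are the SE of the fit, and each panel has its own scale. PTTG1, PCNA, CHAF1A and TK1 have their highest value at 96 h, and IGFBP3, COL5A2 and EPAS1 turn from below 0 at 12 h to above 0 at 96 h.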

How the data were processed

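The authors mapped and counted the reads, and deposited a table of UMI counts per gene and well, not normalized. Per the labels' processing notes they used UMI-tools, Trim Galore 0.6.7, HISAT2 2.2.1 and featureCounts 2.0.1 with GRCh38. Versions differ for Trim Galore and featureCounts in the published methods. Which annotation release was used, and whether counting used strand, is not given in the sources used here.

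Wells with 100 to 40000 UMIs, 2000 to 7000 genes and at most 35% of UMIs from the mitochondrial chromosome were kept, and no doublet caller was run. Counts were summed per library and group, giving 24 sums. The 10 score genes were removed after library sizes were taken, genes were filtered with filterByExpr by group, and TMM factors were computed. edgeR 4.0.16 (glmQLFit robust, glmQLFTest, R 4.3.3) fitted library and group, or library and group within each time, with p-values adjusted by Benjamini-Hochberg over all 6850 protein-coding genes tested and a threshold of 0.05. The model of the 12 pairs left 11 and that of the 6 times 6 residual degrees of freedom. SE is the log2 difference divided by the square root of F. CPM use the TMM library sizes, except in the 4 bins and the lists' sums, which use protein-coding totals, and signs within libraries use log2 CPM with a prior count of 2.

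Genes were named by rule: the 12 highest and 12 lowest differences among genes past the threshold with at least 30 CPM on average in the higher group and the same sign in at least 11 libraries, up to 4 members per list with the lowest adjusted p, the 10 lowest adjusted p over the 6 times, 5 per direction in the contrast, and any regulator of mitotic entry, CDK inhibitor or TGFβ target. DTL, UNG and VIM were added after their values were seen. Values of some single genes that the rule names are not reported here. The members and lists were chosen with earlier results of these data known. Promoters came from RefSeq tables of GRCh38.p14, and overlapping genes from GENCODE 44, within 1000 bases of the 3′ end. The script was tested on simulated data. Alternatives were DESeq2 1.42.0, RLE factors, no filter, another score, other cuts, limits and depths, each library left out, the replicate number as a block, and all genes.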

Additional observations from a re-analysis of the deposited data

Results flagged for a closer look

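For 10 genes the high minus low difference varied most clearly over the 6 times, by edgeR's test of the interaction. The adjusted p-values were 9.3e-16 for IGFBP3, 6.8e-13 for MT2A, 7.4e-10 for NPTX1, 7.3e-09 for PTTG1, 4.2e-07 for PCLAF, 5.1e-07 for CCDC80, 2.2e-06 for COL5A2, 2.9e-06 for TK1, 2.9e-06 for CXCL5 and 6.4e-06 for EPAS1. In IGFBP3, CCDC80, COL5A2 and EPAS1 the difference was above 0 at 96 h and below 0 at 12 h.

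In the contrast of 12 to 96 h minus 0 and 0.5 h, 5 genes had a more positive difference at the later times: CHAF1A by 1.90 on the log2 scale, MCM10 by 1.85, PTTG1 by 1.11, PCNA by 0.73 and CYB5B by 0.56. A more negative difference was found for CXCL5 (-0.88), RSPO3 (-0.81), CD24 (-0.62), HSPB1 (-0.46) and DCBLD2 (-0.44).

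Genes that do not code for protein were outside the comparisons. When all genes were fitted, 78 of 289 such genes that could be tested differed between G2/M-high and G2/M-low cells, 14 higher and 64 lower, a smaller share than the 32.0% of protein-coding genes tested. Examples are SNHG3, a small nucleolar RNA host (0.55 ± 0.07, edgeR adjusted p = 2.2e-08), DLEU2, host of the microRNAs miR-15a and miR-16-1 in man (1.02 ± 0.17), NORAD, a cytoplasmic RNA that binds PUMILIO proteins (-0.49 ± 0.07), and MIR31HG (-0.94 ± 0.15). These 4 were picked after their values were seen.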

How the results depend on the processing

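The 2192 genes that differed between G2/M-high and G2/M-low cells were 1945 to 2181 with one library left out, and every one of them that could be tested kept its sign then. The count fell to 177 against a 1.5-fold difference (91.0% higher), to 1044 with cells thinned to 10000 UMIs and to 53 under stricter limits on cells (73.6% higher), which left 48 cells per group. It was 1249 (50.5% higher) in the 6 libraries of replicate 1 alone and 1006 (57.1% higher) in those of replicate 2, both also chosen after seeing the data and with fewer libraries each. With the score taken per 10000 UMIs outside the mitochondrial chromosome, 2218 of 6845 genes differed. Without a filter 53.8% of 2160 calls were higher, against 42.2% in the fit reported. The cause of the other changes was not tested.

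The 120 genes that varied over the 6 times became 30 with DESeq2, 23 with thinned cells, 51 under a single cut for all libraries (11 libraries left), 3 under the stricter limits, 57 without the 96 h libraries, a choice made after seeing the data, and 79 to 131 with one library left out, lowest without 12 h replicate 1. The 82 genes of the exposure contrast became 7 with DESeq2, 2 against a 1.5-fold difference, 5 with thinned cells, 25 under the single cut, 0 under the stricter limits (edgeR, 974 genes tested, 22 at an unadjusted p under 0.05), 33 without the 96 h libraries, and 46 to 101 with one library left out, lowest without 12 h replicate 2. They were 48 without 0 h replicate 1, 49 without 24 h replicate 1 and 53 without 0.5 h replicate 2.

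With the replicate number as a replicate block, the counts were 2168, 135 and 88. The number is also the barcode set. The deviations of the high minus low differences of same-numbered libraries correlated at -0.02 to 0.03 over 15 pairs of times. An effect shared by both groups of a library cancels in these differences, so they cannot show whether the numbers pair the samples. Under the stricter limits 5 values changed sign: MT-CO1 (0.0505), MT-ND6 (0.0126), TGFBI (0.0463), AKR1B10 (0.0140) and the contrast of CYB5B (-0.17). The medians of the lists moved by less than their spread over libraries in 817 of 835 cases. Groups of 13 to 54 cells limit what single times can show, and small differences of lowly expressed genes were not detectable at this depth.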
